A study of Homo sapiens with 3 samples.

Results

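The human proteasome subunit genes, together with the genes of the regulators and assembly chaperones that share their naming, were followed in HepG2 cells at 0, 10 and 100 μM etoposide. Members were the array's gene names made of PSMA, PSMB, PSMC, PSMD, PSME, PSMF or PSMG and digits alone, with the brightest probe, by the mean log2 signal over the 3 arrays, standing for the gene. This gave 48 of the 27274 gene names on the array, with 65 probes in 83 spots per array. HepG2 is a hepatocellular carcinoma line, and etoposide is a topoisomerase II poison that leaves DNA double-strand breaks. The study set a low dose, chosen for senescence, against a high dose, chosen for apoptosis. The 3 groups were control cells (0 μM, labelled as untreated, and given as DMSO in the paper), cells at 10 μM and cells at 100 μM, all taken after 30 h, with 1 array for each. A single cell line and a single sample per condition mean that no test between conditions is possible, so each value below describes these 3 arrays, and a shift in the mix of living and dying cells cannot be told apart from a change in RNA per cell.

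The proteasome degrades proteins that carry ubiquitin chains. Its 20S core stacks rings of alpha subunits, which form the gate, around rings of beta subunits, some of which cut the substrate, and the 19S cap recognizes, unfolds and feeds in the substrate with a ring of ATPases and a set of non-ATPase subunits. Dedicated chaperones build the core and the base of the cap, other activators can take the place of the cap, and in cells exposed to interferon the catalytic beta subunits are exchanged for immune forms.

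A level below is a signal in multiples of the 75th percentile of its own array, and a log2 ratio is the difference of log2 levels between 2 arrays. The SD given with a ratio is the spread between repeated spots of 1 array, which covers neither cultures nor RNA preparations. Levels of different genes come from different probes and are not compared. A gene was counted as past the threshold when it differed by more than 1.5-fold (0.585 on the log2 scale). Of the 48 members, 46 were well above background on all 3 arrays. PSMA8, the alpha subunit of the testis proteasome, and PSMB11, the beta subunit of the thymus, were not well above background on any array and have no ratio. All 8 hepatocyte genes examined, ALB and HNF4A among them, were well above background on each array, and none of the 4 fibroblast genes was. Of the 3 endothelial genes, 2 were in control cells and at 10 μM, and 3 at 100 μM. The 3 leukocyte genes examined (PTPRC, CD3E and CD14) were also well above background on all 3 arrays, with a summed level of 1.60 in control cells, 2.52 at 10 μM and 5.06 at 100 μM. The higher sum came mostly from CD14, with levels of 1.01, 2.21 and 4.27. PTPRC and CD3E were lower at 10 μM (log2 ratios -1.03 and -0.50) and higher at 100 μM (0.41 and 0.43). Their part in the results was not tested.

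The letters of 2 probes and 6 promoter windows are shown before the values. The probes are those of PSMG3 and PSMC4, from the sub-complexes with the lowest and the highest member at the high dose. They lie at chr7:1573947-1574006 (minus strand) and chr19:45177828-45177887 (plus strand) on hg18, the build of the array files, and are 60 bases long.
PSMG3 probe: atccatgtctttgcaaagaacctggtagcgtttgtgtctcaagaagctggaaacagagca
PSMC4 probe: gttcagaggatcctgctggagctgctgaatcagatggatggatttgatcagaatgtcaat
No member probe had the same sequence as another probe of the array. Of the 46 measured genes, 12 had a brightest probe whose positions on hg18 spanned more than its 60 bases.

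The promoter windows are the 250 bases before the gene start in RefSeq on GRCh38.p14, printed along the gene's strand. They are shown for 3 of the core assembly chaperones, which were lowest at the high dose, for PSMC4, which was highest, and for PSMB9, whose promoter region lies between it and TAP1. Capitals mark matches, on either strand, to the core of the antioxidant response element, which NRF1 and NRF2 bind (TGACNNNGC), to the CCAAT box, to an ETS motif (CGGAAG), to the interferon gamma activated sequence (TTCNNNGAA) and to the cell cycle homology region (TTTGAA).
PSMG1, chr21:39183452-39183701, minus strand: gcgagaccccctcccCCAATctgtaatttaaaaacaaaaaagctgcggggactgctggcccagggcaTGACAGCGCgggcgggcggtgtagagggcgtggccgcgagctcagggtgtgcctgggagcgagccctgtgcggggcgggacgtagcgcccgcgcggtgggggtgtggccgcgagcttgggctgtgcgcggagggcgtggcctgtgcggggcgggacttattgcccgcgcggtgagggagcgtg
PSMG2, first start, chr18:12658488-12658737, plus strand: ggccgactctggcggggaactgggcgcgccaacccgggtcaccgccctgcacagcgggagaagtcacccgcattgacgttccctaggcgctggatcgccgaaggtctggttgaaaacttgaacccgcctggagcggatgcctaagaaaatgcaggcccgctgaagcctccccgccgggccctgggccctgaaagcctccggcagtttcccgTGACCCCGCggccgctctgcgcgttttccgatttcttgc
PSMG2, second start, chr18:12702792-12703041, plus strand: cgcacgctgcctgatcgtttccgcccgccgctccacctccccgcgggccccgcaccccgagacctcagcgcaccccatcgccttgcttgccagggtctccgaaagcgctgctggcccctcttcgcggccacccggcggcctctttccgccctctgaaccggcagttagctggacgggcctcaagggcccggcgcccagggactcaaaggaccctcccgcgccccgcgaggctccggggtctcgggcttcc
PSMG4, chr6:3258697-3258946, plus strand: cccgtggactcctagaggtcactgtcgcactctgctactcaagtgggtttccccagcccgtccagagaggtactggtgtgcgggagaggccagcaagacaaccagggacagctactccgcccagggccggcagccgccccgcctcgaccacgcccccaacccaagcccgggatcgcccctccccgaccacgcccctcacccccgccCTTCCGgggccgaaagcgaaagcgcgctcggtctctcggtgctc
PSMC4, chr19:39970915-39971164, plus strand: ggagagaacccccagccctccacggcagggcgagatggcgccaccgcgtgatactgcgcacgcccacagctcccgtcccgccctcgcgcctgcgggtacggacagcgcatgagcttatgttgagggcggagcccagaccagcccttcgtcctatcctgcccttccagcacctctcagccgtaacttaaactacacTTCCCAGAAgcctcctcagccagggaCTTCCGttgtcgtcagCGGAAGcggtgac
PSMB9, chr6:32853942-32854191, plus strand: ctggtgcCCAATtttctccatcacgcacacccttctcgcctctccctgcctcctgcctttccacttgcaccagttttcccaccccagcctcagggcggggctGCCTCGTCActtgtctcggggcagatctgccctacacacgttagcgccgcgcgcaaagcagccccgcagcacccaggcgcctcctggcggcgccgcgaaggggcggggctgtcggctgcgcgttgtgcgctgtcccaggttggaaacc

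Of the members, 42 had at least 1 such window in the table, 51 windows in all. TGACNNNGC was found in 25.5% of the members' windows and in 10.9% of all 35116 windows. It was present in the printed windows of PSMG1, PSMB9 and the first start of PSMG2, and absent from those of PSMG4 and PSMC4. CGGAAG was found in 49.0% of the members' windows and in 16.5% of all windows, and PSMC4 held it on both strands. The members' share was 37.3% for CCAAT against 32.0% of all windows, 13.7% for TTCNNNGAA against 6.6%, and 11.8% for TTTGAA against 13.3%. Among the 12599 windows whose genes had a signal well above background on each array, the closer set for expressed genes, the shares were 11.9% for TGACNNNGC, 24.7% for CGGAAG, 33.0% for CCAAT, 5.5% for TTCNNNGAA and 9.0% for TTTGAA. These are matches of letters in a window and not sites shown to be bound.

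Across the proteasome genes the 3 arrays differed little, and in each comparison the share of members past the threshold lay below the share of all genes. In cells at 10 μM, none of the 46 measured members was past 1.5-fold in either direction, where 9.01% of all measured genes were higher and 6.47% lower. In cells at 100 μM, 3 members were lower past 1.5-fold (6.52% of the members, beside 9.77% of all genes) and none was higher (beside 18.5%). The 3 were PSMG1, PSMG2 and PSMG4, all chaperones of core assembly. Between the doses, PSMG1 and PSMG2 were higher at 10 μM than at 100 μM past 1.5-fold (4.35% of the members, beside 7.52% of all genes) and no member was lower (beside 14.3%). With the 75th percentile taken over all spots, or with quantile normalization, 1 member (PSMC4) was also higher past 1.5-fold at 100 μM. Without scaling between arrays or with median scaling, 8 were lower, PSMG3, PSMA2, PSMA3, PSMA4 and PSMB10 being added. That is 17.4% of the members, beside 19.5% of all genes without scaling and 21.5% with median scaling.

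**Figure D1:**
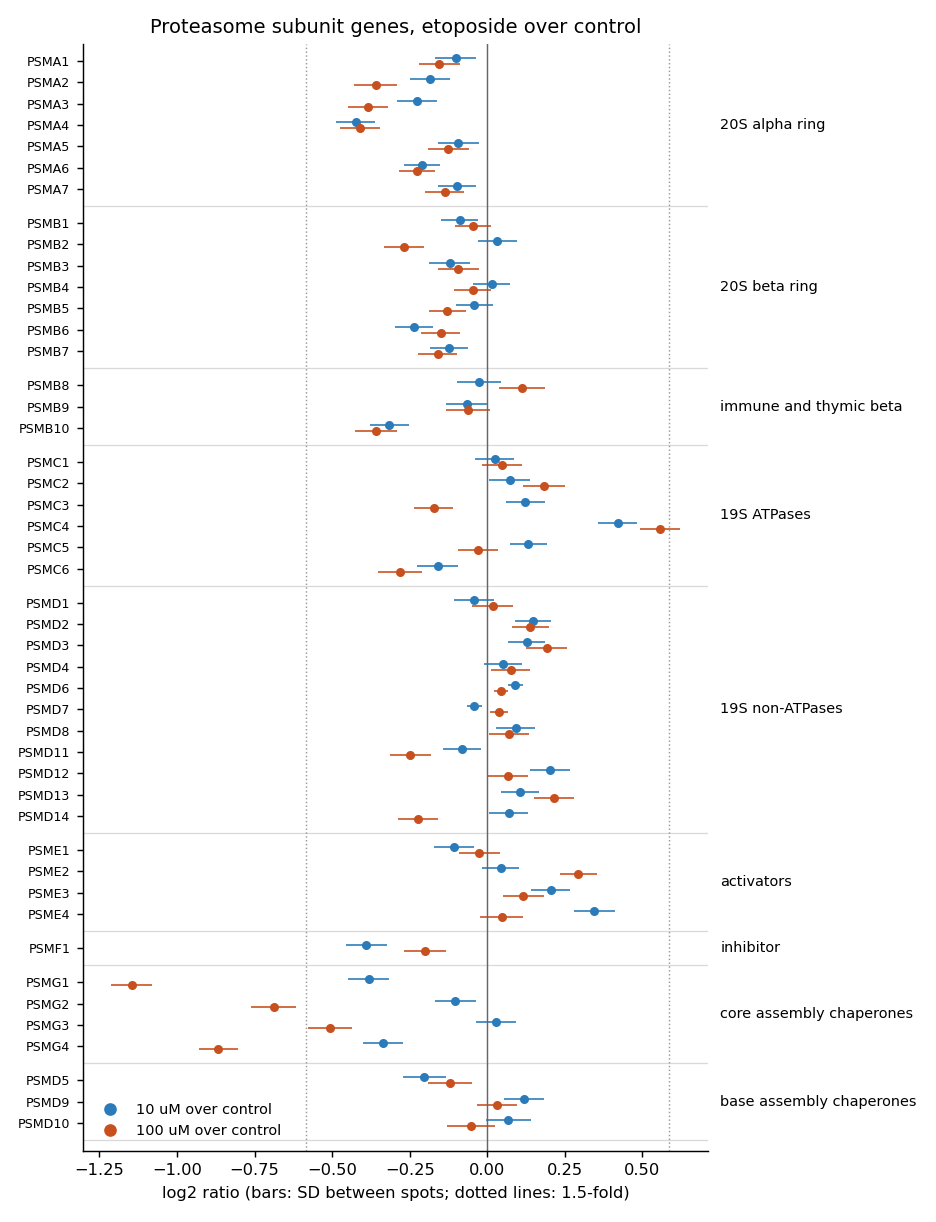
Log2 ratio of each measured member, 10 μM over control (blue) and 100 μM over control (orange), grouped by role. Bars are the SD between spots, the standard error over 10 spots for PSMD6 and PSMD7, and dotted lines mark 1.5-fold. The points of PSMG1, PSMG2 and PSMG4 at 100 μM lie left of the dotted line and no point lies right of it.

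The spread of the members was narrow beside that of all genes. The median log2 ratio of the 46 members was -0.04 at 10 μM, as was that of all genes, and -0.08 at 100 μM, where that of all genes was 0.10. The members' quartiles lay 0.21 apart at 10 μM and 0.27 apart at 100 μM, against 0.47 and 0.69 over all measured genes. The members are bright, so they were also set beside the 8566 genes whose signal was at least that of the dimmest measured member. For those genes the quartile widths were 0.39 and 0.60, their medians were -0.04 and -0.01, and 11.1% of them were lower past 1.5-fold at 100 μM. Both comparisons use the same control array.

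**Figure D2:**
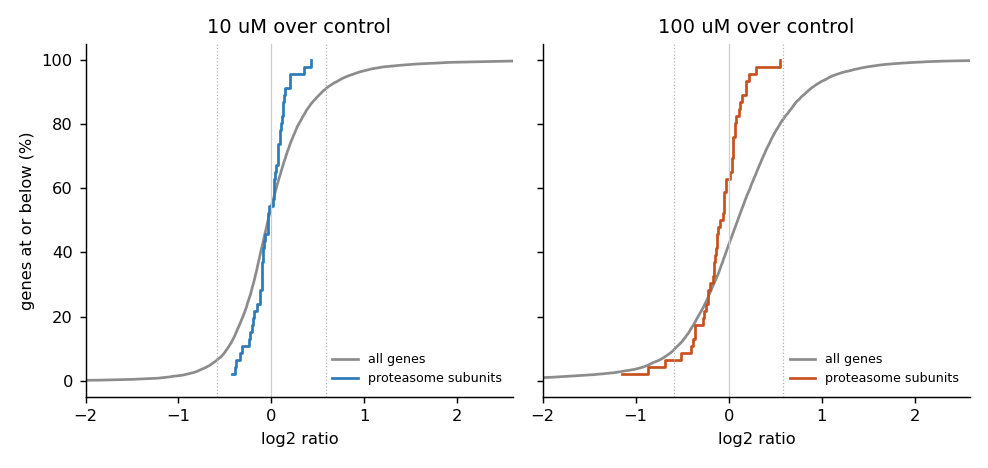
Cumulative share of genes (%) at or below each log2 ratio at 10 μM (left) and 100 μM (right) over control, for the 46 measured members (colored steps) and all measured genes (grey, every 10th gene drawn). The members' curves rise more steeply, with quartiles 0.21 and 0.27 apart against 0.47 and 0.69, and dotted lines mark 1.5-fold.

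The core assembly chaperones were the group that differed most from control at 100 μM. PSMG1 and PSMG2 form one pair and PSMG3 and PSMG4 another, and both pairs help the alpha subunits close into a ring. Their median log2 ratio was -0.22 at 10 μM and -0.78 at 100 μM, and all 4 were lower at 100 μM than on either other array.
The PSMG1 level was 27.6 in control cells, 21.2 at 10 μM and 12.5 at 100 μM. It was therefore lower at each higher dose, and at 100 μM it was 2.21-fold below control (log2 ratio -1.15 ± 0.066, SD between spots), the largest difference of any member. Between the doses it differed 1.70-fold.
PSMG4 had the same order, with levels of 13.4, 10.6 and 7.34 at 0, 10 and 100 μM, and was 1.82-fold below control at the high dose (-0.87 ± 0.064).
PSMG2, the partner of PSMG1, had levels of 2.06, 1.92 and 1.28. It was close to control at 10 μM (-0.10 ± 0.067) and 1.61-fold lower at 100 μM (-0.69 ± 0.073), and its ratio of 0.59 between the doses lay at the threshold itself.
PSMG3, the partner of PSMG4, had levels of 3.36, 3.43 and 2.36. It did not pass the threshold at 100 μM (-0.51 ± 0.071), and at 10 μM it differed from control by less than the spread between spots (0.03 ± 0.065). The lower levels of PSMG1, PSMG2 and PSMG4 at 100 μM stayed past 1.5-fold under all 13 alternative ways of processing, with log2 ratios from -1.44 to -1.09 for PSMG1, -0.98 to -0.63 for PSMG2 and -1.16 to -0.62 for PSMG4. PSMG1, PSMG2 and PSMG3 each rest on 1 probe in 1 spot. For them, the alternatives that average, choose or filter probes, or use the series table, return the same ratio by construction. Scaling by another constant shifts all ratios of a comparison by the same amount. PSMG4 had a second, far dimmer probe above background, for another transcript, with ratios of -0.47 at 10 μM and -0.38 at 100 μM.

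**Figure D3:**
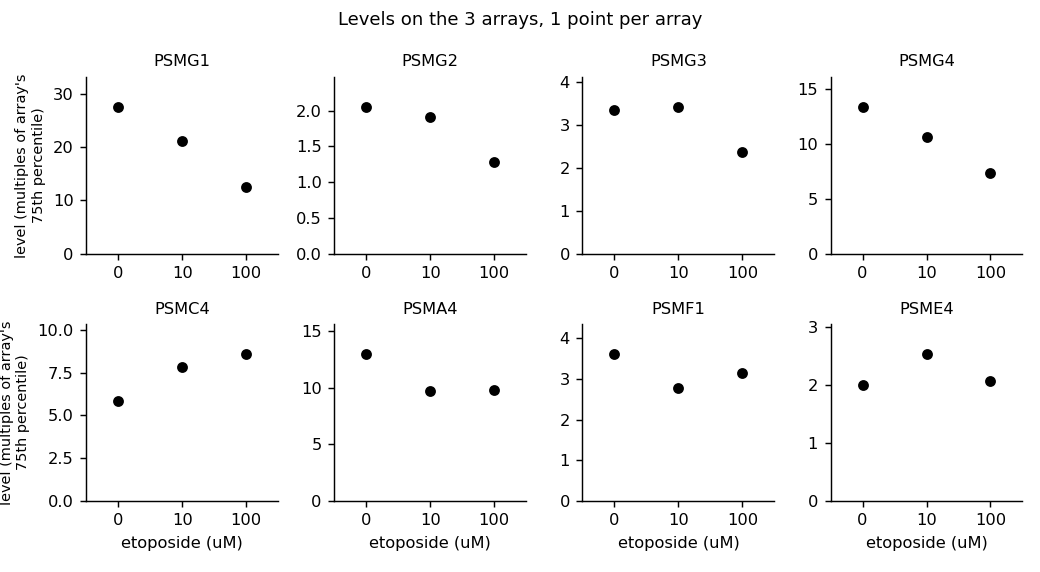
Level (multiples of the array's 75th percentile, axes from 0) of PSMG1 to PSMG4 and of PSMC4, PSMA4, PSMF1 and PSME4 at 0, 10 and 100 μM etoposide, 1 point per array. The 4 PSMG genes are lowest at 100 μM, with PSMG1 going from 27.6 to 12.5, while PSMC4 is highest there at 8.60, an order that turns without scaling and with median or spike-in scaling.

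The base of the cap has assembly chaperones of its own, and these did not share that pattern. PSMD5, PSMD9 and PSMD10 had log2 ratios of -0.20, 0.12 and 0.07 at 10 μM and of -0.12, 0.03 and -0.05 at 100 μM.

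The alpha ring of the core was lower at both doses. All 7 measured alpha genes were below control at 10 μM (median -0.18) and at 100 μM (median -0.23), where 54.6% and 42.4% of all measured genes were lower. Of the 8566 genes as bright as the members, 4733 and 4348 were lower. No alpha gene was past 1.5-fold.
PSMA4 was the lowest, with levels of 13.0, 9.71 and 9.80 at 0, 10 and 100 μM and log2 ratios of -0.42 ± 0.063 and -0.41 ± 0.064. Both treated arrays were thus below control and alike. PSMA2 had levels of 26.0, 22.9 and 20.3, and PSMA3 of 14.4, 12.3 and 11.0. These declined from dose to dose, reaching ratios of -0.36 and -0.38 at 100 μM. PSMA1, PSMA5, PSMA6 and PSMA7 had ratios between -0.23 and -0.09 at the 2 doses.

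The beta ring was lower by less. At 10 μM, 5 of 7 were below control (median -0.09), beside 54.6% of all genes. At 100 μM all 7 were (median -0.13), beside 42.4%, and beside 4348 of the 8566 genes as bright as the members. With quantile normalization the median at 10 μM was 0.014.
The subunits that cut peptide bonds are PSMB5 (after hydrophobic residues), PSMB6 (after acidic residues) and PSMB7 (after basic residues). PSMB5 had levels of 81.4, 79.1 and 74.4, with ratios of -0.04 and -0.13. PSMB6 had ratios of -0.24 and -0.15, and PSMB7 of -0.12 and -0.16. Each of the 3 was thus below control on both treated arrays, though PSMB5 at 10 μM by less than the spread between spots (0.059). Of the structural beta subunits, PSMB2 had levels of 13.6, 13.9 and 11.3 and was lower at 100 μM alone (-0.27 ± 0.064). PSMB1, PSMB3 and PSMB4 had ratios between -0.12 and 0.01 at both doses.

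The immune beta subunits did not move together. PSMB8 and PSMB9, which are encoded in the class II region of the major histocompatibility complex and replace PSMB5 and PSMB6, had levels of 1.20, 1.17 and 1.29, and of 1.92, 1.83 and 1.84. The 3 arrays differed little for either gene: the largest ratio was 0.11 ± 0.074, for PSMB8 at 100 μM. PSMB10, which replaces PSMB7 and lies on another chromosome, was lower, with levels of 23.4, 18.8 and 18.3 and ratios of -0.32 ± 0.063 and -0.36 ± 0.067.

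In the 19S cap the medians of both sets lay above 0. At 100 μM they were below the 0.10 of all genes, but above the -0.01 of the genes as bright as the members. Of the 6 ATPases, which unfold the substrate, 5 were above control at 10 μM (median 0.10), beside 45.4% of all genes. At 100 μM 3 were (median 0.01), beside 57.6%. Of the 8566 genes as bright as the members, 3833 were above control at 10 μM and 4218 at 100 μM.
PSMC4 had the highest ratio of all members at both doses. Its level was 5.85 in control cells, 7.83 at 10 μM and 8.60 at 100 μM, which is 1.34-fold (0.42 ± 0.062) and 1.47-fold (0.56 ± 0.064) above control. The order of its doses (-0.14 ± 0.060 for 10 over 100 μM) is not settled, since it turned without scaling (0.18), with median scaling (0.13) and with spike-in scaling (0.09), and its ratio at 100 μM over control ranged from 0.27 to 0.62 over the alternatives. The other ATPases went both ways: PSMC2 had ratios of 0.07 and 0.18, PSMC6 of -0.16 and -0.28, and PSMC3 of 0.12 and -0.17. PSMC1 and PSMC5 stayed within 0.13 of control.

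Of the 11 non-ATPase subunits, 8 were above control at 10 μM (median 0.09) and 9 at 100 μM (median 0.07). Of all genes, 45.4% and 57.6% were higher, and of the 8566 genes as bright as the members 3833 and 4218.
PSMD2, one of the large scaffold subunits of the base, had levels of 93.0, 103 and 102 and ratios of 0.15 and 0.14. A second PSMD2 probe, with levels of 7.85, 9.09 and 6.08, had ratios of 0.21 ± 0.064 and -0.37 ± 0.065, so the direction at 100 μM turns with the probe. PSMD1, the other large scaffold subunit, had ratios of -0.04 and 0.02, and its second probe had 0.21 ± 0.063 and -0.04. PSMD3 and PSMD13, subunits of the lid, had ratios of 0.19 and 0.22 at 100 μM, and PSMD12, also of the lid, had 0.20 at 10 μM and 0.07 at 100 μM. None of these values over control passed the threshold. PSMD14, the enzyme that removes ubiquitin chains from the substrate, had levels of 20.7, 21.7 and 17.7 and was lower at 100 μM (-0.22 ± 0.064). PSMD11 had the lowest ratio of the lid at that dose (-0.25 ± 0.066). PSMD7, the partner of PSMD14, was measured in 10 spots and had ratios of -0.04 and 0.04. PSMD4, a receptor for ubiquitin, PSMD6 and PSMD8 had ratios between 0.04 and 0.09.

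Cap and core were therefore offset from each other. Over all 17 cap genes the median was 0.09 at 10 μM and 0.05 at 100 μM, and over the 14 measured core genes it was -0.11 and -0.15. Cap minus core was 0.20 at both doses, while between the doses it was -0.03. Of the cap genes 16 of 17 at 10 μM and 13 of 17 at 100 μM lay above the core median, and all 14 core genes lay below the cap median at both doses. The share of all genes past these medians was not counted. Both medians lay inside the quartiles of all genes, -0.25 to 0.22 at 10 μM and -0.24 to 0.45 at 100 μM. The doses share 1 control array, so they are not separate observations of the offset. This contrast between cap and core was chosen after its values were seen. It is taken within arrays, so that scaling by a constant cannot move it, and it ran from 0.19 to 0.25 at 10 μM and from 0.17 to 0.23 at 100 μM over the 13 alternatives. The sign of the cap's own median at 100 μM is not settled, since it depends on the scaling (-0.22 to 0.13 for the non-ATPases and -0.28 to 0.07 for the ATPases). The median of the alpha ring stayed below 0 at both doses.

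The other regulators gave single values in both directions. PSME1 and PSME2 form the interferon-responsive activator, PSME3 a nuclear one and PSME4 the large activator that works on histones.
PSME4 had levels of 1.99, 2.53 and 2.06, so that it was higher at 10 μM (0.34 ± 0.066) and near control at 100 μM (0.05 ± 0.070). The second, dimmer probe of PSME4 gave 0.14 ± 0.072 and -0.03. PSME2 had levels of 161, 165 and 197 and was higher at 100 μM alone (0.29 ± 0.059), while its partner PSME1 had ratios of -0.11 and -0.03. PSME3 had ratios of 0.20 and 0.12. PSMF1, an inhibitor of the core in the test tube, had levels of 3.62, 2.77 and 3.15 and was lower at both doses (-0.39 ± 0.066 and -0.20 ± 0.068). Its next 2 probes by brightness gave -0.02 ± 0.067 and -0.11 ± 0.069 at 10 μM and 0.15 and 0.09 at 100 μM. The dimmest PSMF1 probe gave -0.48 ± 0.153 and -0.35 ± 0.165. The size of the PSMF1 difference at 10 μM and its direction at 100 μM thus rest on the probe.

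Other probes of the same genes show how far a ratio rests on 1 probe. There were 14 such probes with ratios, in 11 of the 13 genes with several probes, and 35 members had 1 probe only. The median absolute difference between the other probe and the brightest one was 0.17 at 10 μM and 0.22 at 100 μM, above the median spread between spots of the members' ratios (0.063 and 0.065). It was past 1.5-fold for 2 probes at each dose, those of PSMA1 and PSMB2 at 10 μM and those of PSMA1 and PSMD5 at 100 μM. The probes of PSMA1, PSMB2 and PSMD5 that differed were dim, with levels under 1 on all 3 arrays.

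**Figure D4:**
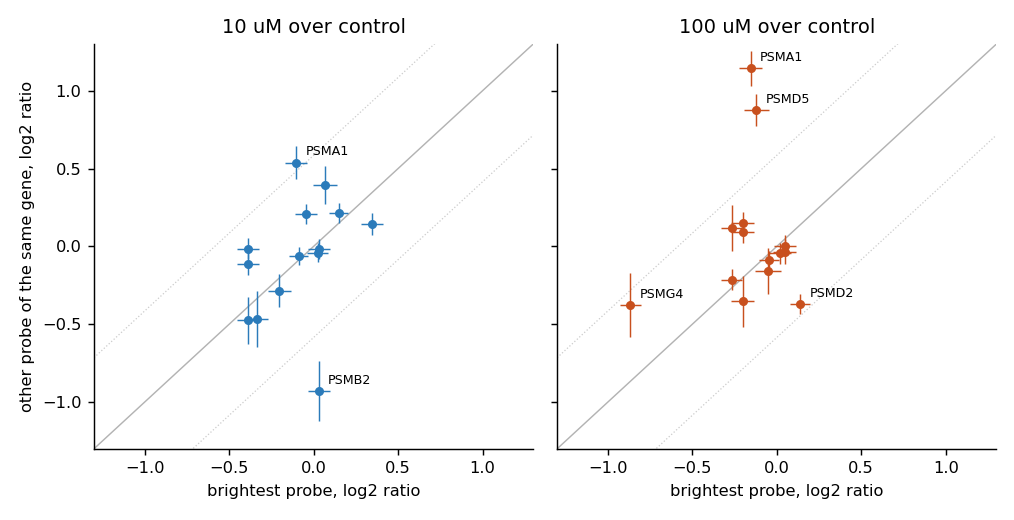
Log2 ratio of the 14 other probes (vertical axis) against the brightest probe of the same gene (horizontal axis), at 10 μM (left) and 100 μM (right) over control. Bars are SD between spots, the solid line marks equal ratios and dotted lines a difference of 1.5-fold. At 100 μM the second probes of PSMA1 (1.14) and PSMD5 (0.88) lie far above the line.

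Subunits and partners outside the naming rule, with the genes that control the proteasome or work next to it, made a list of 42 genes, of which 40 were well above background on all arrays. At 10 μM 2 of these were higher past 1.5-fold and none was lower. At 100 μM 3 were higher and 1 was lower, beside the shares of all genes given above for each dose.
The cap has further subunits outside the rule. ADRM1, a ubiquitin receptor, had levels of 2.66, 3.54 and 3.61 and ratios of 0.41 ± 0.063 and 0.44 ± 0.066, and SHFM1 had ratios of -0.15 and -0.21. ADRM1 was thus on the side of PSMC4 and SHFM1 on that of the core genes. Of the deubiquitinases that bind the cap, USP14 had ratios of -0.54 ± 0.138 and -0.47 ± 0.153, and UCHL5, which binds ADRM1, had levels of 1.72, 1.94 and 1.34, lowest at 100 μM. POMP, which matures the beta ring, had ratios of -0.03 ± 0.091 and 0.14 ± 0.095 and did not share the course of PSMG1 to PSMG4. Its probe was dim, with levels of 0.399, 0.39 and 0.438. KIAA0368, which tethers cap and core, was the gene past 1.5-fold below control at 100 μM, with levels of 3.25, 2.43 and 2.10 (-0.63 ± 0.068), and AKIRIN2, which brings proteasomes into the nucleus, had ratios of -0.48 and -0.44.
NFE2L1 encodes NRF1, the factor that raises proteasome genes when the proteasome is blocked. Its levels were 9.42, 7.75 and 9.80, lower at 10 μM alone (-0.28 ± 0.062). The probe of NFE2L2, which encodes NRF2, was not well above background on any array, nor was that of DDI1. Of the proteins that release and cut NRF1, VCP had levels of 47.1, 55.2 and 72.1 and was past 1.5-fold at 100 μM (0.62 ± 0.060), NGLY1 had ratios of -0.43 and -0.24, and DDI2 was lower at 10 μM than at 100 μM past 1.5-fold (-0.68 ± 0.155). MAFK, a small MAF partner of NRF1 and NRF2, had the highest ratio of the list at 100 μM, with levels of 0.656, 1.06 and 1.36 and ratios of 0.69 ± 0.076 and 1.05 ± 0.079. MAFF, another of these partners, had ratios of 0.30 and -0.03, and NFE2L3, a relative of NRF1, of -0.24 and -0.54. Among the remaining genes of ubiquitin and its delivery, ZFAND2A was close to control at 10 μM (0.05) and just under the threshold at 100 μM (0.57 ± 0.066).
In the class I antigen pathway, which uses the peptides that proteasomes make, TAP1 was past 1.5-fold at both doses, with levels of 4.47, 7.89 and 6.95 and ratios of 0.82 ± 0.062 and 0.64 ± 0.065. IRF1, a dim probe, had ratios of 0.56 and 0.53. The immune subunits PSMB8 and PSMB9 stood at -0.03 and -0.07 at 10 μM beside these.

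**Figure D5:**
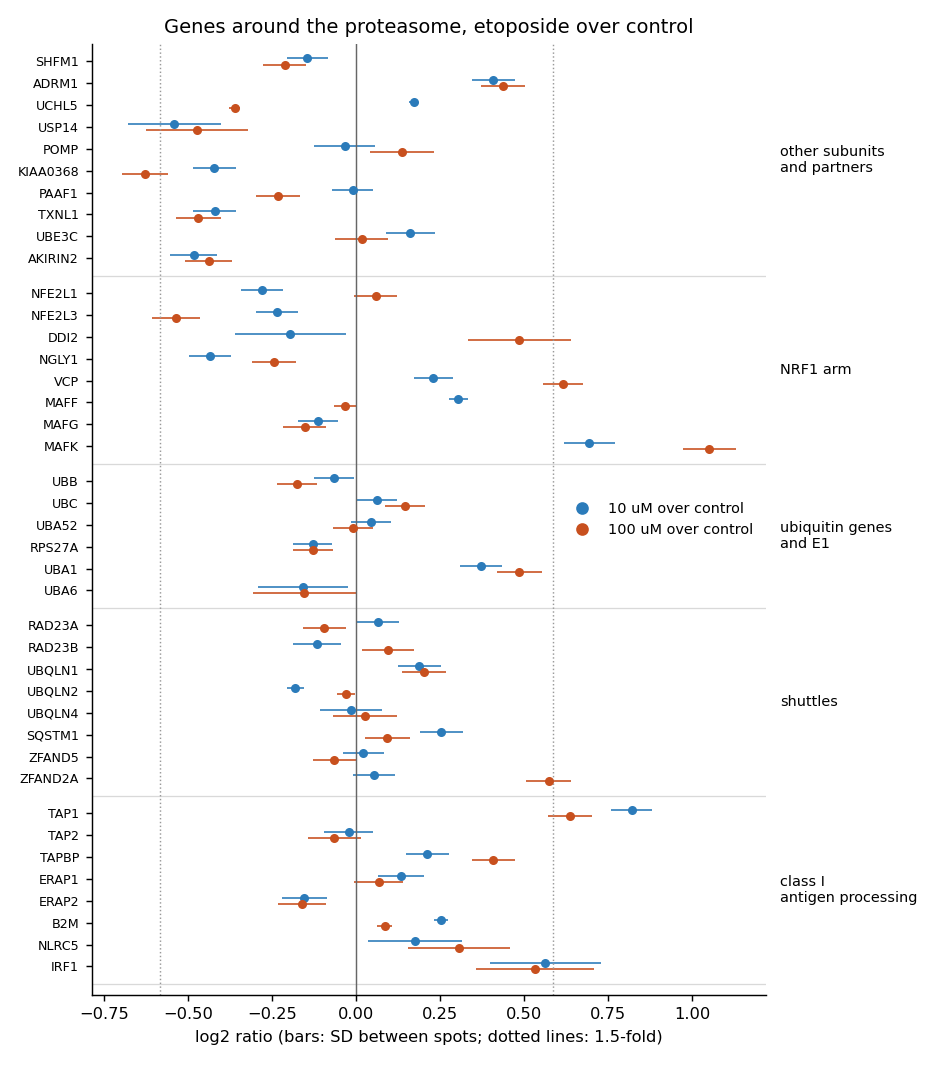
Log2 ratio of the 40 measured genes around the proteasome at 10 μM (blue) and 100 μM (orange) over control, by list. Bars are the SD between spots (the standard error for genes in 10 spots) and dotted lines mark 1.5-fold. MAFK at 1.05 and TAP1 at 0.82 lie farthest right, and KIAA0368 at -0.63 is left of the dotted line at 100 μM.

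Gene pairs that start head to head allow a member to be set beside the gene on the other side of the same promoter region. Of the members, 9 had a neighbour on the array, on the opposite strand and with starts under 1000 bases apart in RefSeq. PSMB9 and TAP1 start 488 bases apart, and while TAP1 was higher at both doses, PSMB9 was not, so that they differed by 0.89 at 10 μM and 0.70 at 100 μM. PSMG2 and CEP76 (265 bases) had ratios of -0.10 and 0.78 at 10 μM and of -0.69 and -0.08 at 100 μM. Each was thus lower at 100 μM than at 10 μM, and between the doses they differed by 0.27. PSMD9 and HPD (179 bases) had ratios of 0.03 and 0.91 at 100 μM, and PSMD10 and ATG4A (236 bases) of -0.05 and 0.99. In these pairs the member stayed near control and its neighbour was past 1.5-fold. ATG4A was dim, with levels of 0.176, 0.228 and 0.35. The other 5 members with such a neighbour, PSMA2, PSMC5, PSMD13, PSME2 and PSME4, differed from it by less than 1.5-fold at both doses.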

How the data were processed

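RNA of HepG2 cells was amplified, labelled with Cy3 as the single dye, and hybridized to 3 Agilent arrays on 1 slide. The authors deposited the Feature Extraction (version 10.7.3.1) output of each array: a background-subtracted intensity for each spot, and 0 or 1 flags for outlier spots and for signals well above background. The deposited series table holds the same intensity values, with no scaling between arrays. The genome build of the probe positions is hg18, per the file headers.

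Here the intensity was log2-transformed, averaged over the spots of a probe without outlier spots, and set relative to the 75th percentile over probes (514.1 in control cells, 536.4 at 10 μM and 432.4 at 100 μM). A ratio was taken where the brighter of both arrays was well above background, with the dimmer signal held at or above the lowest such signal of its array (19.5, 22.7 and 21.6). Between 16659 and 16749 genes were measured per comparison. The SD between spots is the median over the 50 repeated probes nearest in signal, combined over both arrays. For probes in 10 spots it is the standard error of their own mean. No spot was saturated. The number of arrays limits the precision.

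Members and gene lists were chosen with earlier results of these data known. Every member was named for sub-complexes of up to 8 genes. Of the 19S non-ATPases, and of the related genes, the 3 highest and 3 lowest per comparison were covered, with any gene past 1.5-fold and 7 fixed related genes. Motifs, promoter windows and neighbours came from RefSeq tables on GRCh38.p14, matched by symbol, and 6 members had no window. Some listed genes are not reported here and were left out of the list counts. Exon annotation of the probes on hg18 was not used here. Python 3.11.15 with pandas 2.3.3 and R 4.3.3 with limma 3.58.1 (normexp alternative only) were used, and the steps were tested on simulated data.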

Additional observations from a re-analysis of the deposited data

Results flagged for a closer look

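At 100 μM over control, 2 probes that stand for no gene in the comparisons, each a dimmer probe of a member gene, were higher past 1.5-fold while the gene's brightest probe was not. The second probe of PSMA1, designed to another transcript (chr11:14492088-14492147 on hg18), had levels of 0.226, 0.328 and 0.499 at 0, 10 and 100 μM, a log2 ratio of 1.14 ± 0.112 at the high dose, beside -0.16 ± 0.066 for the brightest probe. The second probe of PSMD5 (chr9:122623005-122623064) had levels of 0.303, 0.248 and 0.555, a log2 ratio of 0.88 ± 0.101, beside -0.12 ± 0.072 for the brightest probe. Both probes were well above background on all 3 arrays, and the cause of the difference was not tested.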

How the results depend on the processing

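Of 1794 single-member ratios recomputed over 13 alternatives, 405 moved by more than the spread between spots, and no ratio past 1.5-fold changed sign. Those past it were the ratios of 3 members at 100 μM over control and of 2 for 10 over 100 μM. Sign changes of smaller ratios were not counted. For members with 1 probe, several of the alternatives return the same ratio by construction. At 100 μM over control the members' median was -0.33 without scaling, -0.37 with median scaling and -0.25 with spike-in scaling, and 8, 8 and 4 members were lower past 1.5-fold (17.4%, 17.4% and 8.7%, beside 19.5%, 21.5% and 15.7% of all genes). For 10 over 100 μM it was 0.35, 0.30 and 0.26, with 8, 4 and 4 members higher (17.4%, 8.7% and 8.7%, beside 17.1%, 15% and 13.4% of all genes), and -0.030 when the 75th percentile counted every spot. The median of all genes at 100 μM over control moved in the same way, to -0.15, -0.19 and -0.08. The members' median minus that of all genes was -0.091 at 100 μM over control and 0.062 for 10 over 100 μM with quantile normalization, -0.27 and 0.22 with normexp, and -0.41 and 0.30 (-0.10 at 10 μM over control) with no filter on dim probes. The number higher past 1.5-fold at 100 μM was 1 with quantile normalization or every spot counted (PSMC4) and with no filter (PSMB11, at background). For 10 over 100 μM it was 1 with these first 2, when only detected probes set the percentile, with normexp and with outlier spots kept, where PSMG2 slipped under the threshold. For 10 over 100 μM, 1 member was lower with the mean over probes and 1 with no filter, the latter again PSMB11. Where no value above shows it, the cause was not tested. A slide block could not be fitted, since all arrays share 1 slide. No paired analysis was possible because a condition is a single array.

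Cultures were not repeated, so the spread between samples is unknown, and the spread between probes of a gene is wider than that between spots. Dim probes have the widest spread between spots, and the ratios of USP14, POMP, DDI2, IRF1 and ATG4A rest on such signals.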
